A study of Mus musculus with 146 samples.

Results

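The 9 genes described here encode parts of the contacts between germ cells and their neighbours. They are Tex14 for the intercellular bridge, Cdh1, Cdh2, Ctnnb1 and Epcam for cell adhesion, Itgb1 for attachment to matrix, and the connexin genes Gja1, Gja4 and Gjc1. They were chosen by name from the 52605 gene symbols of the deposited tables. Levels are given over the germ cells of the series, 19, 86 and 33 in the 3 clusters used here. Female mouse germ cells enter meiosis inside cysts, where daughter cells stay joined by intercellular bridges, and the cysts break apart around birth as single oocytes are enclosed by pregranulosa cells in primordial follicles. Cadherins, which bind β-catenin inside the cell, hold neighbouring cells together. Connexins form the gap junction channels through which the growing oocyte later exchanges small molecules with its granulosa cells.

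The data are 146 Smart-seq2 libraries from single germ cells of C57/BL6J ovaries at P0.5, the day of birth. All cells came from untreated female pups of 1 litter, whose ovaries were dissociated with trypsin, and there is no other stage, genotype or treatment among the libraries. Each cell was picked under the microscope, and its cDNA was screened by PCR for the germ cell gene Ddx4 and for absence of the granulosa gene Foxl2. The labels do not tie a cell to a pup, so the cells are 1 sample. Values are therefore descriptions without a test, and the SD given is the spread between cells.

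A library with 0 TPM of Ddx4 was left out. Among the others, 7 pairs were nearly identical, with a Pearson correlation of log2(TPM + 1) over coding genes from 0.991 to 0.997, against 0.880 for the next most similar pair and a median of 0.706. Their counts differed by more than pure counting noise (chi-square per gene 1.64 to 4.46). Each pair was counted as 1 cell at its mean, and ratios between clusters whose call changes when the libraries are counted separately are given with both. Of 39 member values of at least 1 TPM in either library of a pair, 37 were within 1.5-fold, with a median absolute log2 difference of 0.075. Both exceptions were Gja1. Between 4074810 and 26855272 reads of a library were assigned to genes, spike-ins left out. Germ cell identity was checked with 5 markers. Ddx4, Dazl, Sycp3 and Figla were detected in all cells, and Kit in all but 5, whereas the granulosa gene Foxl2 was detected in 4 cells.

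Cells were placed in 3 clusters rebuilt from 20 meiotic and oocyte genes, none of which is among the 9 genes. Clusters are numbered along the first principal component, whose start is the side where the meiotic genes Sycp2, Stag3 and Taf7l are high. Cluster 1 holds 19 cells, cluster 2 holds 86 and cluster 3 holds 33. The numbers describe an order of expression profiles at 1 age, not of time. A gene is called higher or lower where the ratio of mean TPM between clusters, after adding 1 TPM to each mean, reached 1.5-fold (0.58 on the log2 scale). Ratios are those of the cluster with the higher number over the one with the lower number, so that a positive log2 ratio between clusters 1 and 3 means a higher mean in cluster 3. Coordinates of genes are those of GRCm38 (mm10). A gene is called detected in a cell at 0.1 TPM or more.

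The sequences upstream of the genes are shown for the members with the largest upward ratios (Gja4 and Epcam) and for a connexin with a downward ratio (Gja1). RefSeq promoter sequences (GRCm38.p6) matched 6 of the 9 members. Cdh1 and Gjc1 had no match, and Cdh2 was left out of the search. Each window covers the 250 bases before the RefSeq start of the gene, 5′ to 3′ on the strand of the gene. For Gja4 and Epcam this is also the start in the gene annotation used for the positions given further on, whereas for Gja1 the window ends upstream of that start. The letters searched, on both strands, were CANNTG, the E-box to which basic helix-loop-helix factors such as Figla bind, and TAATTG, to which the oocyte homeobox factor Nobox binds. E-boxes are in capitals. Gja4 is at chr4:127314040-127314289 (minus strand), Gja1 at chr10:56377050-56377299 (plus strand) and Epcam at chr17:87635729-87635978 (plus strand).
Gja4: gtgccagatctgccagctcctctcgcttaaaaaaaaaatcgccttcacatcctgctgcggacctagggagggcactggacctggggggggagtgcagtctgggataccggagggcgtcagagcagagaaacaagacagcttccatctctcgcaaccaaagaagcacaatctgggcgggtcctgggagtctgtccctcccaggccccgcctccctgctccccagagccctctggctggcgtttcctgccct
Gja1: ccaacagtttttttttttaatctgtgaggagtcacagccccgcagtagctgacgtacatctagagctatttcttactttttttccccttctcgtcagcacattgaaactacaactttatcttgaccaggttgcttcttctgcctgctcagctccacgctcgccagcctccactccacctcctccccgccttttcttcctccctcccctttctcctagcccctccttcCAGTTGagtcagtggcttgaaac
Epcam: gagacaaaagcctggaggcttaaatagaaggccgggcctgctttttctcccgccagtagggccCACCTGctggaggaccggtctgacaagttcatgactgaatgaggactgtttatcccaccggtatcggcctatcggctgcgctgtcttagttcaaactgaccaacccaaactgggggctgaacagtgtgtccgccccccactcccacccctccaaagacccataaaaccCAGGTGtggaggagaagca
The Gja4 window held no CANNTG match, that of Gja1 held 1 and that of Epcam held 2. CANNTG occurred in 66.2% of 32841 windows of the same length and TAATTG in 7.17%. TAATTG was in none of these 3 windows. A match is a description of letters and not a binding site.

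Across all cells the levels of the 9 genes, which TPM makes comparable per length of transcript, spanned more than 2 orders of magnitude. Ctnnb1 was the most abundant at 239 ± 164 TPM (mean ± SD), followed by Tex14 at 75.7 ± 66.6 TPM. Epcam (45.9 ± 49.9 TPM), Gja4 (43.1 ± 54.5 TPM), Itgb1 (28.01 ± 35.6 TPM) and Gjc1 (24.8 ± 25.5 TPM) formed a middle group whose neighbours differed by far less than their spread. Cdh1 (7.52 ± 14.98 TPM), Cdh2 (2.76 ± 6.04 TPM) and Gja1 (1.61 ± 4.59 TPM) were lowest, again with differences inside the spread. A cell had from 2 to all 9 of the genes detected, with a median of 7. All 9 were detected together in 6 cells, 4 of cluster 2 and 2 of cluster 3.

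**Figure D1:**
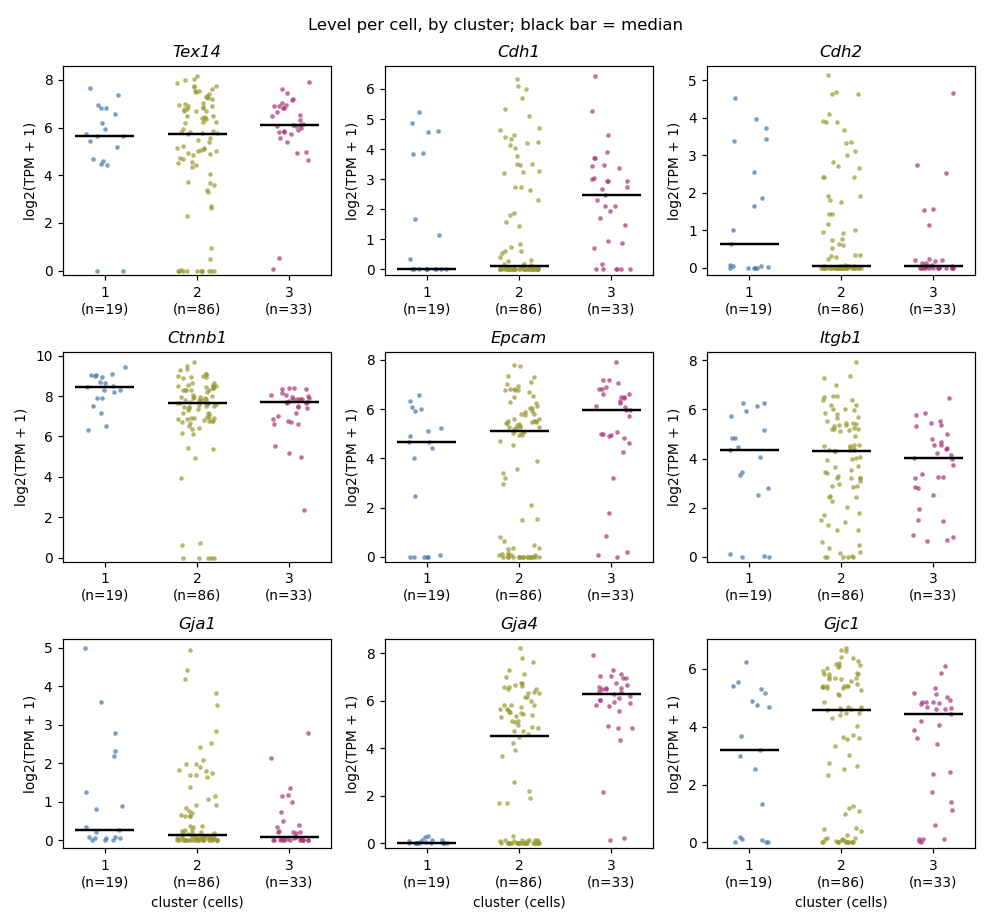
Level of each of the 9 genes in each cell as log2(TPM + 1), by cluster, with the median of a cluster as a black bar. Gja4 lies at or near 0 in all 19 cells of cluster 1, is split into low and high cells in cluster 2 and is high in 31 of the 33 cells of cluster 3, whereas the points of Tex14 and Itgb1 overlap across the clusters.

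Between clusters 1 and 3, 2 of the 9 genes were called higher (Gja4 and Epcam) and 3 lower (Gja1, Cdh2 and Ctnnb1). Of 12625 coding genes whose mean reached 1 TPM in one of these clusters, 27.9% passed the same fold upward and 38.3% downward, so these counts are close to the background. Between clusters 1 and 2 the calls were 2 higher (Gja4 and Gjc1, background 24.2%) and 2 lower (Gja1 and Ctnnb1, background 25.5%). With the paired libraries counted separately, Gjc1 (0.58) and Ctnnb1 (-0.56) were inside the fold. Gjc1 passed it there in 11 of 17 alternatives, whose lowest value was 0.046 in 3 equal bins, and Ctnnb1 in 8 of 17, with -0.49 nearest to 0. Gja1 passed it in 12 of 17, with a highest value of 0.060. Among the 17, leaving out each cell in turn counts as 2, its lowest and its highest value, and the 17 share the same cells. Leaving out 1 cell of cluster 1 was also enough to put Gjc1 (0.53, a cell listed at 0) or Ctnnb1 (-0.52, the cell with the most of it) inside the fold, or Epcam (0.70, the cell with the most of it) outside. Between clusters 2 and 3, 2 were higher (Gja4 and Epcam, background 18.7%) and 3 lower (Cdh2, Gja1 and Itgb1, background 29.2%). The median log2 ratio between clusters 1 and 3 was 0.058 over the 9 genes and -0.22 over the coding genes tested. Dividing TPM by spike-in TPM moved the coding genes as a whole upward in cluster 3. The median over the coding genes was then 0.40 between clusters 1 and 3, with 44% past the fold upward and 22.3% downward, and 0.61 between clusters 2 and 3, with 51.5% upward and 9.22% downward. In CPM 31.8% were higher and 33.7% lower between clusters 1 and 3. Values given for these scalings are to be read against those medians and shares.

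**Figure D2:**
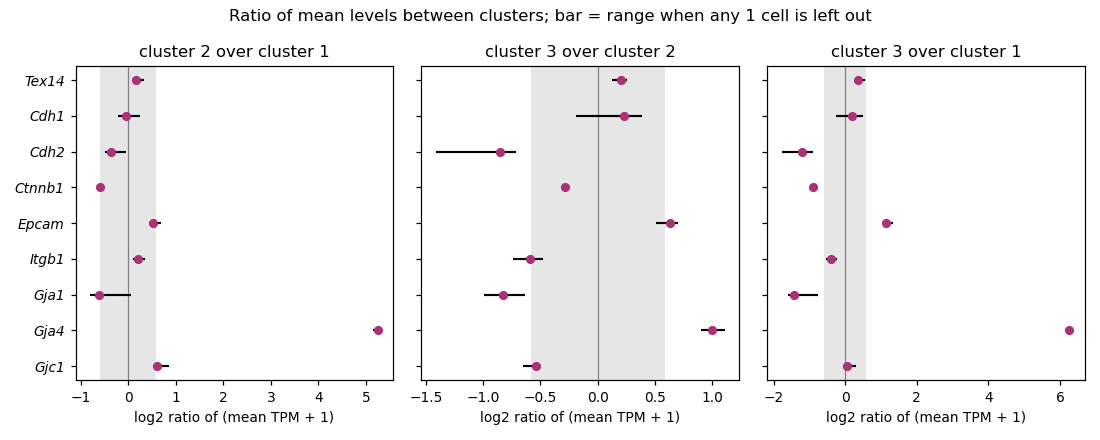
Log2 ratio of mean TPM plus 1 between clusters for each gene (points), with the range obtained when any 1 cell is left out (bars) and the zone under 1.5-fold in gray. Gja4 stands at 6.25 between clusters 1 and 3, and the bars of Cdh2 and Gja1 are the longest among the genes called lower there.

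Tex14 (chr11:87405065-87555823, plus strand) encodes the protein that keeps germ cell bridges open by blocking the last step of cell division. It was detected in 89.1% of all cells (95% interval 82.7% to 93.8%). In cluster 1 its TPM ran from 0 through a median of 49.2 to 200.0, in cluster 2 from 0 through 52.8 to 289 and in cluster 3 from 0.036 through 68.97 to 237. The 3 ranges overlapped almost fully. Mean levels were 65.9 ± 54.8, 74.1 ± 73.2 and 85.6 ± 53.6 TPM, and the log2 ratio between clusters 1 and 3 was 0.37, which was not called. Tex14 RNA was present in most cells of each cluster, and 11 of the 13 cells listed at 0 were in cluster 2. The number of reads behind 1 TPM, from which a transcript length can be computed, differed along the order. This implied length had a median of 2541 bases in the 17 cells of cluster 1 with at least 20 reads, 1863 in 72 cells of cluster 2 and 1132 in 31 cells of cluster 3. The 5 annotated Tex14 transcripts are 444 to 4763 bases long. The same number of reads gives more TPM on a shorter transcript, and in CPM (reads of a gene per total of assigned reads, scaled), which do not use length, the log2 ratio of Tex14 between clusters 1 and 3 was -0.28. It was 0.94 when TPM were divided by spike-in TPM and 0.69 when means were taken after the log, both past the fold.

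Of 16 other genes of the bridge and the midbody, the structure from which bridges form, 15 had a mean of at least 1 TPM. Between clusters 1 and 3, 2 were higher, 6 lower and 7 within 1.5-fold, with a median log2 ratio of -0.40, beside 27.9% higher and 38.3% lower and a median of -0.22 over the coding genes. The lower genes with the largest ratios were Rbm44, whose protein lies in germ cell bridges (239 to 77.7 TPM, log2 ratio -1.61), Racgap1 of the centralspindlin complex (117.3 to 40.4 TPM, -1.51), the scaffold Anln (41.9 to 16.6 TPM, -1.28) and the membrane scission adaptor Pdcd6ip (110.8 to 62.4 TPM, -0.82, but 0.029 when TPM were divided by spike-in TPM and -0.51 in CPM). With that division 3 of the 15 were higher and 3 lower, beside 44% and 22.3% of the coding genes, and in CPM 2 and 3, beside 31.8% and 33.7%. The higher genes were Chmp4b of the scission machinery (1.89 to 4.47 TPM, 0.92) and the spindle midzone gene Prc1 (62.3 to 117.03 TPM, 0.90). Without 1 cell of cluster 1 the ratio of Chmp4b was 1.95. Cep55, the abscission adaptor that Tex14 protein blocks, was singled out after its values were seen and was at 24.6 TPM in cluster 1 and 20.8 TPM in cluster 3, within 1.5-fold.

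Cdh1 (chr8:106603351-106670246, plus strand) encodes E-cadherin. E-cadherin RNA was detected in 9 of 19 cells of cluster 1 (47.4%, 95% interval 24.4% to 71.1%), 41 of 86 of cluster 2 (47.7%, 36.8% to 58.7%) and 27 of 33 of cluster 3 (81.8%, 64.5% to 93.02%). These are exact Clopper-Pearson intervals of the count of cells alone. Its mean was 7.43 ± 11.8, 7.14 ± 15.4 and 8.55 ± 15.8 TPM, whereas the medians of the 3 clusters were 0.018, 0.071 and 4.57 TPM. More cells of cluster 3 held some Cdh1, and the few highest cells of each cluster set the means. The log2 ratio of the means between clusters 1 and 3 was 0.18. It passed the fold with division by spike-in TPM (0.85) and when means were taken after the log (0.68), and was -0.58 in 3 equal bins along the order. The highest values were 36.4, 79.9 and 86.2 TPM. Cells of cluster 3 also had more coding genes detected (median 9682, against 8206 in cluster 2 and 8495 in cluster 1) and more reads (median 10711092, against 8945082 and 9615238), whose part in this share was not tested. With a limit of 5 estimated reads, Cdh1 was detected in 9, 39 and 26 cells of the clusters.

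Cdh2, on chromosome 18, encodes N-cadherin. N-cadherin RNA was detected in 10 cells of cluster 1 (52.6%, 28.9% to 75.6%), 39 of cluster 2 (45.3%, 34.6% to 56.5%) and 11 of cluster 3 (33.3%, 17.96% to 51.8%), and these intervals overlap. Means were 4.17 ± 6.38, 3.04 ± 6.46 and 1.24 ± 4.35 TPM, with highest values of 21.95, 33.8 and 24.3 TPM. The log2 ratio between clusters 1 and 3 was -1.21, and the cell with the highest value in cluster 3 held 59.6% of that cluster's sum. Without that cell the ratio was -1.77. Between clusters 2 and 3 the ratio was -0.85, and inside the fold in 3 equal bins (-0.41) and with means taken after the log (-0.53). In the order of bins, the last of 5 equal bins of cells had a mean of 0.39 TPM, against 4.61 TPM in the bin before it and 3.70 TPM in the first.

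Both cadherins were detected together in 32 cells, Cdh1 alone in 45, Cdh2 alone in 28 and neither in 33. In cluster 1 Cdh1 was above Cdh2 in 7 of 19 cells (36.8%, 16.3% to 61.6%), in cluster 2 in 36 of 86 (41.9%, 31.3% to 52.99%) and in cluster 3 in 26 of 33 (78.8%, 61.1% to 91.02%). Cdh1 was the cadherin with the higher level in most cells of cluster 3 and in fewer than 1 in 2 cells of the other clusters. These shares count cells with neither cadherin detected, which were 4, 25 and 4 in clusters 1, 2 and 3. Cdh1 alone was detected in 5, 22 and 18 cells of the clusters and Cdh2 alone in 6, 20 and 2, so the 2 were about even in clusters 1 and 2.

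Ctnnb1 (chr9:120929216-120960507, plus strand) encodes β-catenin, which links cadherins to the cytoskeleton and also acts in Wnt signalling. All cells of clusters 1 and 3 and 81 of the 86 cells of cluster 2 had it. Its TPM ran from 78.6 through a median of 344 to 682 in cluster 1, from 0 through 199 to 821 in cluster 2 and from 4.13 through 209 to 342 in cluster 3. Means were 352 ± 167, 232 ± 174 and 190 ± 91.7 TPM, a log2 ratio of -0.88 between clusters 1 and 3, and the ranges overlapped. The direction was the same in each alternative tried, from -0.99 to -0.13. The value nearest to 0 was that for TPM divided by spike-in TPM, where it was no longer called. Median spike-in TPM were 10423, 12207 and 6735 in the 3 clusters. The implied transcript length of Ctnnb1 was also shorter in the later clusters, with medians of 1672, 1432 and 1197 bases, among 15 annotated transcripts of 364 to 3623 bases.

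Epcam (chr17:87635979-87651129, plus strand) encodes an epithelial adhesion protein that is also found on germ cells. Epcam RNA was present in 13 of 19 cells of cluster 1 (68.4%, 43.4% to 87.4%), 65 of 86 of cluster 2 (75.6%, 65.1% to 84.2%) and 31 of 33 of cluster 3 (93.9%, 79.8% to 99.3%). Medians were 24.3, 33.4 and 61.7 TPM and highest values 94.5, 223 and 241 TPM. Means of 29.2 ± 30.4, 42.1 ± 49.7 and 65.6 ± 54.6 TPM gave a log2 ratio of 1.14 between clusters 1 and 3, and 1.02 without the cell of cluster 3 with the most Epcam. Each cluster held at least 1 cell listed at 0, so that the ranges overlapped. In 3 equal bins along the order in place of clusters, the ratio of the last to the first was 0.56, just under the fold. Between clusters 1 and 2 the ratio was 0.51, under the fold, but past it in 4 of 17 alternatives. Among these were CPM (0.61), clusters from the 2000 most variable genes (0.73) and leaving out the cells with globin RNA (1.21). Between clusters 2 and 3 the ratio was 0.63, and 0.51, under the fold, without the cell of cluster 3 with the most Epcam. It was also under the fold with Ward clusters (0.35), with 15 or 30 neighbours in the clustering (0.46 and 0.56), in 3 equal bins (0.41) and without the cells with globin RNA (0.48), and -0.074 with clusters made from the 2000 most variable genes.

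**Figure D3:**
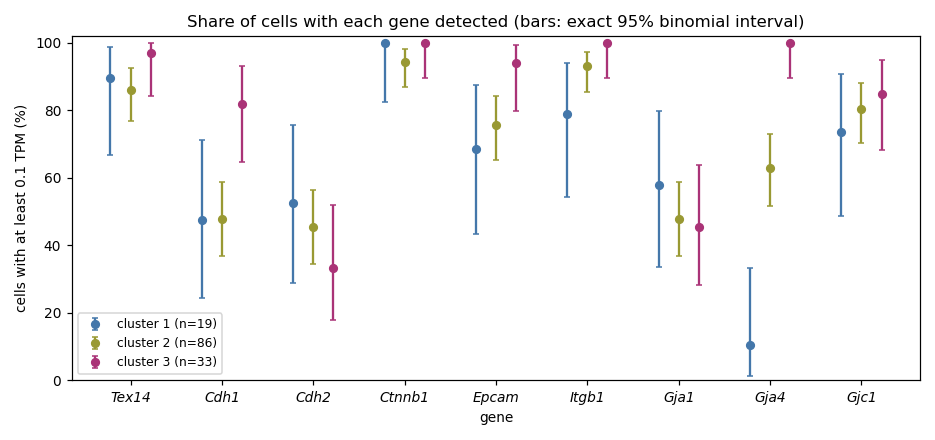
Share of cells of each cluster in which a gene reached 0.1 TPM, in percent, with exact 95% binomial intervals that cover counting error only. Gja4 goes from 10.5% to 62.8% and 100% of cells, with intervals apart from each other. Cdh1 goes from 47.4% and 47.7% to 81.8%, where only the intervals of clusters 2 and 3 are apart, and for the other 7 genes the intervals of the 3 clusters overlap.

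Among 20 further genes of adherens and tight junctions, 13 had a mean of at least 1 TPM, of which 4 were higher, 5 lower and 4 within 1.5-fold between clusters 1 and 3 (median log2 ratio -0.36). These shares are near the 27.9% and 38.3% of the coding genes. With division by spike-in TPM 6 were higher and 3 lower, beside 44% and 22.3% of the coding genes, and in CPM 5 and 4, beside 31.8% and 33.7%. Higher were Jup, which encodes plakoglobin, a close relative of β-catenin (0.39 to 5.52 TPM, log2 ratio 2.23), the α-catenin gene Ctnna2 (2.62 to 9.90 TPM, 1.59), the actin linker Vcl (6.27 to 19.4 TPM, 1.49) and Mllt4, which encodes afadin (59.9 to 162 TPM, 1.43). The lower genes with the largest ratios were Ctnnd1, which encodes p120 catenin and steadies cadherins at the membrane (37.7 to 9.81 TPM, -1.84), the α-catenin gene Ctnna1 (37.96 to 13.4 TPM, -1.44), the P-cadherin gene Cdh3 (4.27 to 1.43 TPM, -1.12, but -0.31 without 1 cell of cluster 1) and the claudin gene Cldn7 (17.6 to 8.44 TPM, -0.98, but -0.27 with division by spike-in TPM). Of the catenins, Ctnnb1, Ctnna1 and Ctnnd1 were lower and Jup and Ctnna2 higher, directions that were the same in CPM and with division by spike-in TPM, although Ctnnb1 did not reach the fold with the latter. Jup was detected in 53 cells and Ctnna2 in 34.

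Itgb1 (chr8:128685654-128733200, plus strand) encodes integrin β1, the partner of many α subunits in matrix receptors. Itgb1 was found in 15 of 19, 80 of 86 and 33 of 33 cells of the clusters. TPM ran from 0 through a median of 19.1 to 76.02 in cluster 1, from 0 through 18.8 to 244 in cluster 2 and from 0.55 through 15.1 to 86.9 in cluster 3. With means of 26.9 ± 26.99, 31.2 ± 41.2 and 20.3 ± 20.1 TPM, the ratio between clusters 1 and 3 was not called (-0.38). That between clusters 2 and 3 was -0.59, but -0.48 without the cell of cluster 2 with the most Itgb1, -0.53 without the cells with globin RNA, -0.37 in CPM, -0.16 with means taken after the log, and 0.48 when TPM were divided by spike-in TPM, still below the median of all coding genes under that scaling.

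Of 23 other integrin genes and integrin adaptors, 12 had a mean of at least 1 TPM, with 5 higher, 2 lower and 5 within 1.5-fold between clusters 1 and 3 (median log2 ratio 0.41), beside the same 27.9% and 38.3% of coding genes. With division by spike-in TPM 7 were higher and 2 lower, beside 44% and 22.3% of the coding genes, and in CPM 5 and 2, beside 31.8% and 33.7%. The higher genes with the largest ratios were the α subunits Itga9 (2.08 to 20.98 TPM, log2 ratio 2.83) and Itga4 (0.72 to 5.35 TPM, 1.89), the integrin activator Tln1 (16.5 to 56.2 TPM, 1.71) and Itgb4 (2.59, but 0.45 in CPM), of whose sum 85.2% came from 1 cell of cluster 3 (0.43 without it). In CPM the ratios of Itga9 and Itga4 were 3.83 and 2.93. The TPM ratio of Tln1 was 2.66 without 1 cell of cluster 1. Lower were Itga8 (3.45 to 0 TPM, -2.15) and the focal adhesion kinase gene Ptk2 (75.7 to 35.05 TPM, -1.09). Itga8 was detected in 9 cells in all, and its ratio was -0.90 in CPM and -1.38 without 1 cell of cluster 1.

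Gja4 (chr4:127311421-127314039, minus strand) encodes connexin 37, the channel of the oocyte in the gap junctions of follicles. Its range in cluster 1 was 0 to 0.23 TPM with a median of 0, and 10 estimated reads were assigned to it in all 19 cells. In cluster 2 it ran from 0 through a median of 22.1 to 293 TPM, and in cluster 3 from 0.11 through 77.6 to 238 TPM. Cells of cluster 2 were split, with 52 at 1 TPM or more, 2 between 0.1 and 1 TPM and 32 below 0.1 TPM. All 33 cells of cluster 3 passed 0.1 TPM and 31 passed 1 TPM, so clusters 1 and 3 overlapped only at the lowest cells of cluster 3. Means were 0.046 ± 0.070, 38.96 ± 54.1 and 78.8 ± 49.6 TPM.

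The level of Gja4 in cluster 1 was under the 0.24 TPM that 3 reads would give in a cell. Against that floor, the mean of cluster 2 was at least 164-fold higher and that of cluster 3 at least 332-fold higher. On the scale of mean TPM plus 1 the log2 ratios were 5.26 between clusters 1 and 2, 1.00 between clusters 2 and 3 and 6.25 between clusters 1 and 3. Between clusters 1 and 3 Gja4 was higher in each of the alternatives tried, between 2.58 and 9.08. Between clusters 1 and 2 the range was 2.66 to 8.06, with the lowest values for clusters from the 2000 most variable genes and for 3 equal bins (2.75), so the bounds against the floor hold for the clusters used here. Between clusters 2 and 3 it was not higher with clusters made from the 2000 most variable genes (-0.074) and was under the fold in 3 equal bins (0.47). The only annotated transcript of Gja4 is 1685 bases long, so that its TPM do not depend on a choice of transcript.

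Gjc1 (chr11:102799579-102819700, minus strand) encodes connexin 45. Gjc1 was found in 14 of 19, 69 of 86 and 28 of 33 cells of the clusters. In cluster 1 its TPM ran from 0 through a median of 8.24 to 75.1, in cluster 2 from 0 through 22.7 to 103.95 and in cluster 3 from 0 through 20.8 to 67.4. Means of 18.3 ± 21.3, 28.3 ± 28.4 and 19.1 ± 16.9 TPM were within their spread, and the log2 ratio between clusters 1 and 3 was 0.058. Among the alternatives it lay between -0.53 (clusters from the 2000 most variable genes) and 0.62 (division by spike-in TPM).

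Gja1 (chr10:56377330-56402513, plus strand) encodes connexin 43, the main connexin of granulosa cells. It was near the limit of detection, with a total of 1250 estimated reads over all cells, against 79854 for Gja4. Medians were 0.21, 0.094 and 0.059 TPM and highest values 30.8, 30.05 and 5.93 TPM. It was detected in 11 of 19, 41 of 86 and 15 of 33 cells, and in 9, 24 and 8 cells with a limit of 5 estimated reads. Means of 3.12 ± 7.27, 1.70 ± 4.61 and 0.52 ± 1.19 TPM gave log2 ratios of -0.61 and -0.82 between adjacent clusters and -1.44 between clusters 1 and 3. Without the highest cell of cluster 1, which held 51.9% of that cluster's sum, the ratios to clusters 2 and 3 were 0.060 and -0.76. The ratio between clusters 1 and 2 was also inside the fold with Ward clusters (-0.54) and in CPM (-0.41). The same held in 3 equal bins (-0.38) and with means taken after the log (-0.34). The ratio between clusters 2 and 3 was inside the fold in CPM (-0.57), in 3 equal bins (-0.37), with division by spike-in TPM (-0.37), with means taken after the log (-0.32) and when 2000 variable genes were used for clustering (-0.014). The 3 cells with the most Gja1 had 45.5 to 90.6 reads for it, and a cell with 291 reads had 10.5 TPM, and the 8 annotated transcripts are 180 to 3889 bases long. In the 10 cells with the most Gja1, the sum of 11 pregranulosa markers was 0.03 to 8.81 TPM and Ddx4 was at 123.7 to 525 TPM. The sum of 8 stromal markers there was 0.22 TPM in 1 cell and 6.90 to 73.6 TPM in the other 9, against a median of 1.07 TPM over all cells, and its part in the Gja1 level was not tested. Of these markers Nr2f2 was detected in 69 cells and the others in 5 to 27. Over all cells, Spearman's rho with the stromal sum was 0.16 for Gja1. It was 0.24 for Ctnnb1, 0.20 for Gjc1, 0.18 for Cdh2 and between -0.073 and 0.12 for the other members.

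Within single cells, Gja4 was above Gjc1 in 0 of 19 cells of cluster 1, which allows a share of up to 17.6% (exact interval), in 37 of 86 cells of cluster 2 (43.02%, 32.4% to 54.2%) and in 31 of 33 cells of cluster 3 (93.9%, 79.8% to 99.3%). In cluster 1, 12 cells had Gjc1 without Gja4 and none had Gja4 without Gjc1. In cluster 2, 44 cells had both, 25 Gjc1 alone, 10 Gja4 alone and 7 neither. In cluster 3, 28 cells had both and 5 had Gja4 alone. Of these 2 connexins, the one with the higher level was thus Gjc1 or neither in cluster 1 and Gja4 in most cells of cluster 3. Gjc1 was above the third connexin, Gja1, in 13 of 19 cells of cluster 1, and Gja4 was above Gja1 in 33 of 33 cells of cluster 3.

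**Figure D4:**
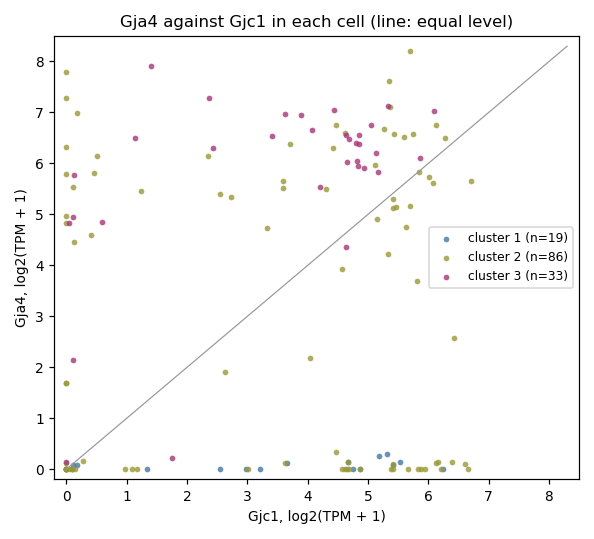
Gja4 against Gjc1 in each cell, both as log2(TPM + 1), coloured by cluster, with the line of equal levels. The 19 cells of cluster 1 lie along the bottom, cells of cluster 2 lie on both sides of the line and 31 of the 33 cells of cluster 3 lie above it.

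Of 17 further connexin genes and 3 pannexin genes, only Gja5, Gjd3 and Panx1 had a mean of at least 1 TPM. Panx1, a pannexin that forms channels in the membrane of single cells, was at 1.75 ± 4.24, 23.4 ± 28.5 and 18.6 ± 19.7 TPM in the 3 clusters, a log2 ratio of 2.83 between clusters 1 and 3. It was detected in 6 of 19 cells of cluster 1, 64 of 86 cells of cluster 2 and 29 of 33 cells of cluster 3. Gjd3 was lower (4.29 to 1.89 TPM, -0.87, but 0.013 without 1 cell of cluster 1 and 0.13 when TPM were divided by spike-in TPM) and Gja5 within 1.5-fold (1.61 to 1.47 TPM). Gja4, Gjc1 and Panx1 were the only genes of these families with a mean above 2 TPM over all cells.

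Along 5 equal bins of cells in the order of the first principal component, Gja4 had medians of 0, 0.094, 42.8, 35.8 and 79.8 TPM and was detected in 3, 14, 21, 23 and 28 cells of 27, 28, 27, 28 and 28. Panx1 medians were 0.082, 4.57, 9.95, 13.9 and 12.2 TPM. Mean Gja4 levels were 1.47, 28.1, 56.4, 43.7 and 85.02 TPM, lowest in the first bin and highest in the last. The rank of a cell in this order and its Gja4 level had a Spearman's rho of 0.65 over the 19, 86 and 33 cells of the clusters, and 0.59 with the order made from the 2000 most variable genes. It was -0.28 for Ctnnb1, 0.28 for Panx1 and 0.20 for Epcam, and between -0.17 and 0.13 for the other 6 members. The Spearman correlation of Gja4 was also 0.32 with assigned reads, 0.36 with genes detected and -0.39 with spike-in TPM, which differ between the clusters as well, and their part was not tested.

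**Figure D5:**
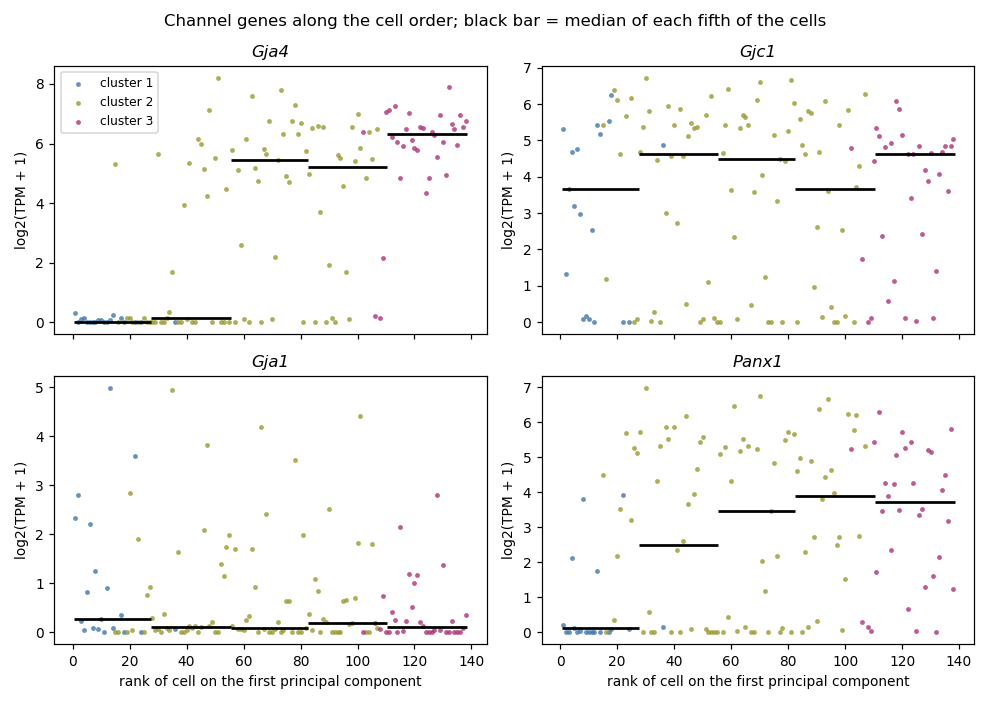
Level of the channel genes Gja4, Gjc1, Gja1 and Panx1 as log2(TPM + 1) in cells ranked on the first principal component, coloured by cluster, with the median of each of 5 equal bins as a black bar. The Gja4 medians step from 0.094 to 42.8 TPM between the second and the third bin, whereas Gjc1 has low and high cells in each bin.

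The 9 genes varied largely apart from each other. Over their 36 pairs, rho across these cells lay between -0.20 (Gja1 and Gja4) and 0.29 (Epcam and Gja4), with a median of 0.068, and within cluster 2 alone between -0.18 and 0.29. The coding genes most like Gja4 among 7053 with means from 10 TPM upward were Nlrp4f (rho 0.71; 0.75, 181 and 775 TPM in the clusters), Zbed3 (0.67; 3.65, 177 and 365 TPM) and Mtmr14 (0.64; 75.9, 214 and 394 TPM). Nlrp4f and Zbed3 encode oocyte proteins found in a complex beneath the membrane of the egg. For the other 6 members tested the highest rho was lower, from 0.32 (Itgb1 with Hace1) to 0.43 (Ctnnb1 with Hnrnpu and Epcam with Nsa2). All these correlations rest on cells of 1 sample that differ in depth, and they carry no p.

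Markers of other cells were measured beside the members. The sum of 11 pregranulosa markers had medians of 0.51, 0.66 and 1.04 TPM in the 3 clusters, with a range of 0 to 82.1 TPM over all cells, and 2 of the 11 had a mean of at least 1 TPM. Medians for 8 stromal markers were 4.35, 0.97 and 0.58 TPM with a highest sum of 879 TPM, and those for 5 surface epithelium markers did not pass 0.05 TPM. Endothelial sums had medians of 6.13, 1.87 and 0.92 TPM, led by Pecam1 in each cluster, while Cdh5, Kdr, Tie1 and Egfl7 had means below 1 TPM over all cells. The sum of 6 blood markers reached 318259 TPM in a cell of cluster 1. Without the 28 cells with at least 1000 TPM of globin RNA, log2 ratios between clusters 1 and 3 were 6.34 for Gja4, 1.69 for Epcam, -0.89 for Ctnnb1, -1.01 for Cdh2 and -1.92 for Gja1, in the same directions. Without the 4 cells with Foxl2 the directions were also the same.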

How the data were processed

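Smart-seq2 libraries of 146 single germ cells held ERCC spike-in RNA. The authors checked reads with FastQC and ran Salmon, corrected for sequence bias, on mm10 and the spike-in sequences, and deposited 1 table per cell. The deposited TPM are relative to all transcripts of a cell, mitochondrial genes and spike-ins included. The deposited estimated counts of reads are not normalized and need not be whole, and the lengths deposited beside them are the authors' values per gene. Effective lengths of 583 genes of constant length served to turn reads per TPM into an implied transcript length. The gene length column was not used as a length, since it depends on the number of transcripts.

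Members were the 9 listed symbols in cells with at least 1 TPM of Ddx4. The members, gene lists and markers were chosen with earlier results of these data known. Clusters were rebuilt from all 146 libraries with Seurat 5.3.0 (R 4.3.3) from the 20 feature genes (10 components, 20 neighbours, resolution 0.2, the lowest from 0.1 in steps of 0.05 that gave 3 clusters), and differ in size from those of the study, whose list of cells was not used. Libraries with a correlation above 0.95 were joined. Mean TPM, log2 ratios with a pseudocount of 1 TPM called at 1.5-fold, shares of cells with exact 95% intervals and Spearman's rho were computed with Python 3.11.15, pandas 2.3.3, NumPy 2.4.6 and SciPy 1.17.1. Only the log2 ratio was checked on simulated data. Coding genes whose mean reached 1 TPM in one of the clusters compared gave the background. The floor is the TPM of 3 reads. Depth per library is given with the data. Intervals and floors cover counting error only. Named genes were the members, up to 4 companions per direction with the largest ratio between clusters 1 and 3, and the 3 most similar coding genes of each member detected in at least 50% of cells. Other clusterings, bins, scalings, pseudocounts, detection limits and cell selections were tried, and leaving out each cell. Leaving out cells with globin RNA or Foxl2 and counting the paired libraries separately, and other scalings and leave-one-out values of the companion lists, were added after the data were seen.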

Additional observations from a re-analysis of the deposited data

Results flagged for a closer look

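The library left out for lack of germ cell RNA held member transcripts that the main comparisons above do not use. Among the alternatives, that with all cells counted this library. It had 0 TPM of Ddx4, Figla and Kit and was placed in cluster 1. Its Gja1 level was 173 TPM from 1031 estimated reads, whereas the highest of the germ cells had 30.8 TPM. Epcam was at 24.9 TPM (65 reads) and Gjc1 at 3.40 TPM (17 reads), each above the level that 3 reads would give. Tex14, Cdh1, Ctnnb1, Itgb1 and Gja4 were at 0, and Cdh2 had 1 read. Of the 8 stromal markers, Col1a2 was at 222 TPM, Tcf21 at 14.1 TPM and Pdgfra at 11.5 TPM there, while the other 5, among them Col1a1 and Col3a1, were between 0 and 0.55 TPM. Of the 11 pregranulosa markers, Kitl was at 82.4 TPM, and the other 10 were between 0 and 2.63 TPM, with Foxl2 at 0. Of the 5 surface epithelium markers, Upk3b was at 10.5 TPM and Krt8 at 2.73 TPM, and the others were between 0 and 0.73 TPM. The highest values of Upk3b and Krt8 in the germ cells were 0.045 and 13.6 TPM. With this library counted, the log2 ratio of Gja1 from cluster 1 to cluster 3 was -3.05 in place of -1.44.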

How the results depend on the processing

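All results are descriptions of 1 sample, so no p-value could be lost. The counts of members past 1.5-fold were small and moved with most settings. From the main counts of 2 higher and 2 lower (cluster 2 over cluster 1), 2 and 3 (cluster 3 over 2) and 2 and 3 (cluster 3 over 1), they became 1 and 0 for cluster 2 over 1 and 1 higher for cluster 3 over 2 with Ward clusters. Clusters from 2000 variable genes gave 1 lower for cluster 2 over 1 and 0 higher for cluster 3 over 2, where Epcam (-0.074) and Gja4 (-0.074) reversed. With 15 or 30 neighbours, 1 was higher for cluster 3 over 2, and with 30, 1 was lower for cluster 2 over 1. In 3 equal bins, counts were 1 and 1 for cluster 2 over 1, 0 and 1 for cluster 3 over 2, and 1 higher for cluster 3 over 1. CPM gave 1 lower for each adjacent comparison, where 23.7% and 24.4% of coding genes were lower. Division by spike-in TPM moved the median log2 ratio of all coding genes tested between clusters 1 and 3 from -0.22 to 0.40 (clusters 2 and 3, -0.18 to 0.61) and gave 1 higher (cluster 2 over 1), 5 higher and 1 lower (cluster 3 over 2, Itgb1 reversed at 0.48, below that median) and 5 higher (cluster 3 over 1), where 51.5% (cluster 3 over 2) and 44% (cluster 3 over 1) of coding genes were higher. Means of log2 values gave 1 lower (cluster 2 over 1), 4 higher and 0 lower (cluster 3 over 2) and 4 higher (cluster 3 over 1). The share of coding genes past the fold was not computed for means of log2 values, other clusterings, bins or cell selections. Counts of members under those settings therefore have no background beside them and are not results about the members. The count lower for cluster 2 over 1 was 1 without mitochondrial genes and spike-ins, with all cells, without cells with globin, without cells with Foxl2 and with paired libraries counted separately. The last also gave 1 higher there, and leaving out cells with globin gave 1 higher for cluster 3 over 2. Leaving out each cell in turn gave 1 to 3 higher and 1 to 2 lower for cluster 2 over 1, where Gja1 ranged from -0.80 to 0.060, and 1 to 2 higher for cluster 3 over 2. The cause of these changes was not tested. Gja4 was called higher for cluster 2 over 1 and for cluster 3 over 1 in each alternative, and Cdh2 and Gja1 were called lower for cluster 3 over 1 in each. The number of members detected in at least 50% of cells was 7, 6 and 7 in clusters 1, 2 and 3. It stayed within 1.5-fold with limits of 1 TPM or 5 estimated reads, with all cells and with paired libraries counted separately. It was not computed in the other alternatives. No paired analysis was possible because all cells form 1 group.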
